A study of Mus musculus with 6 samples.

Results

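The HSP90 chaperones and their co-chaperones were described here as 10 genes: the paralogues Hsp90aa1, Hsp90b1 and Trap1 and the co-chaperones Cdc37, Ptges3, Stip1, Ahsa1, Fkbp4, Ppp5c and Cacybp. Members were chosen by name. A probe set, the group of short oligonucleotides that reports 1 transcript on the array, was used when the platform annotation gave it 1 of these genes alone. That rule found 17 probe sets of 9 members, out of 12393 genes measured by 22626 probe sets. Ptges3, which encodes the co-chaperone p23, had 2 probe sets that it shares with a pseudogene and none of its own, so it has no value here. Hsp90ab1, the constitutive cytosolic HSP90, is not analysed here.

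RNA came from CD4+CD25+ Treg, regulatory T cells that hold immune responses in check, after magnetic separation. The cells were from HDAC6 knockout mice (3 arrays) and from wild-type C57BL6 mice (3 arrays). The series calls the samples independent. The sources used here give neither the strain of the knockout nor the age of the animals, nor the number of animals behind a sample, and p-values measure the spread between these samples. The study's title names HDAC6 and HSP90 together as controls of Foxp3+ Treg function, and the comparison below asks whether transcripts of the HSP90 machinery differ when HDAC6 is lost.

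HSP90 is an ATP-driven chaperone that finishes the folding of signalling proteins, among them kinases and steroid receptors, after HSP70 has handled them. Co-chaperones load its clients, speed or hold its ATPase cycle, and decide which client it sees. HDAC6 removes acetyl groups from the HSP90 protein, and hyperacetylated HSP90 binds its clients and p23 less well, a step that acts on protein and need not change any transcript. HSP90 inhibition and heat shock both release HSF1, the factor that raises transcription of heat shock genes.

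All levels below are the authors' RMA values on the log2 scale, where 1 unit is a 2-fold step, and every difference is HDAC6 knockout minus wild type in log2 units. Array medians lay between 6.22 and 6.27. The targeted gene Hdac6 read 7.54, 7.86 and 7.64 in knockout Treg, against 8.54, 8.23 and 8.42 in wild-type Treg, a difference of -0.71 (SE 0.11, limma adjusted p = 0.0875). Its probe set was lower in every knockout array and did not pass the threshold of 0.05. The position of that probe set relative to the deleted part is unknown here, and it does not check the labels. Of 10 Treg and T cell markers 7 were above 0 and 3 below, 0 passed, and their mean log2 level was 10.39 to 10.47 in knockout arrays and 10.31 to 10.38 in wild-type arrays. The surface receptor Nrp1 lay wholly above wild type (0.38, SE 0.08, limma adjusted p = 0.165) and the signalling adaptor Lat wholly below (-0.09, SE 0.06). Of all genes 8.28% lay wholly above and 10.3% wholly below. The Treg factor Foxp3 read 10.18 to 10.40 in knockout arrays and 10.21 to 10.33 in wild-type arrays, and the T cell receptor chain gene Cd3e read 11.81 to 11.98 in knockout arrays and 11.95 to 12.04 in wild-type arrays. In a bulk sample, fewer cells of a type and less RNA per cell cannot be told apart.

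No member passed. Of the 17 probe sets, 0 had a limma adjusted p under 0.05, adjusted over all 22626 probe sets, of which 44 (0.194%) passed. Among the members 2 had an unadjusted p under 0.05, 1 higher and 1 lower, where 10.6% of all probe sets did, 5.26% higher and 5.36% lower. The knockout arrays lay wholly above the wild-type arrays for 1 member probe set and wholly below for 1, where 7.68% and 9.48% of all probe sets did. Differences were above 0 for 14 probe sets and below 0 for 3, with a median of 0.11, against 49.6% above 0 and a median of 0.00 over all probe sets. By each gene's brightest probe set, 8 of 9 members were above 0 and 1 below, with a median of 0.16, where 50.7% of all genes were above 0. These counts are not of independent values, as several probe sets share a gene and several members varied together, as described below.

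The intervals show how large a change these arrays leave possible. For 13 of the 17 probe sets the 95% interval of the difference lay inside a 1.5-fold change in either direction. The other probe sets were 1 each of Hsp90aa1, Stip1, Fkbp4 and Ppp5c, each with an upper bound beyond 1.5-fold. The standard error of a member's difference ranged from 0.07 to 0.21, against a median of 0.10 over all probe sets.

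**Figure D1:**
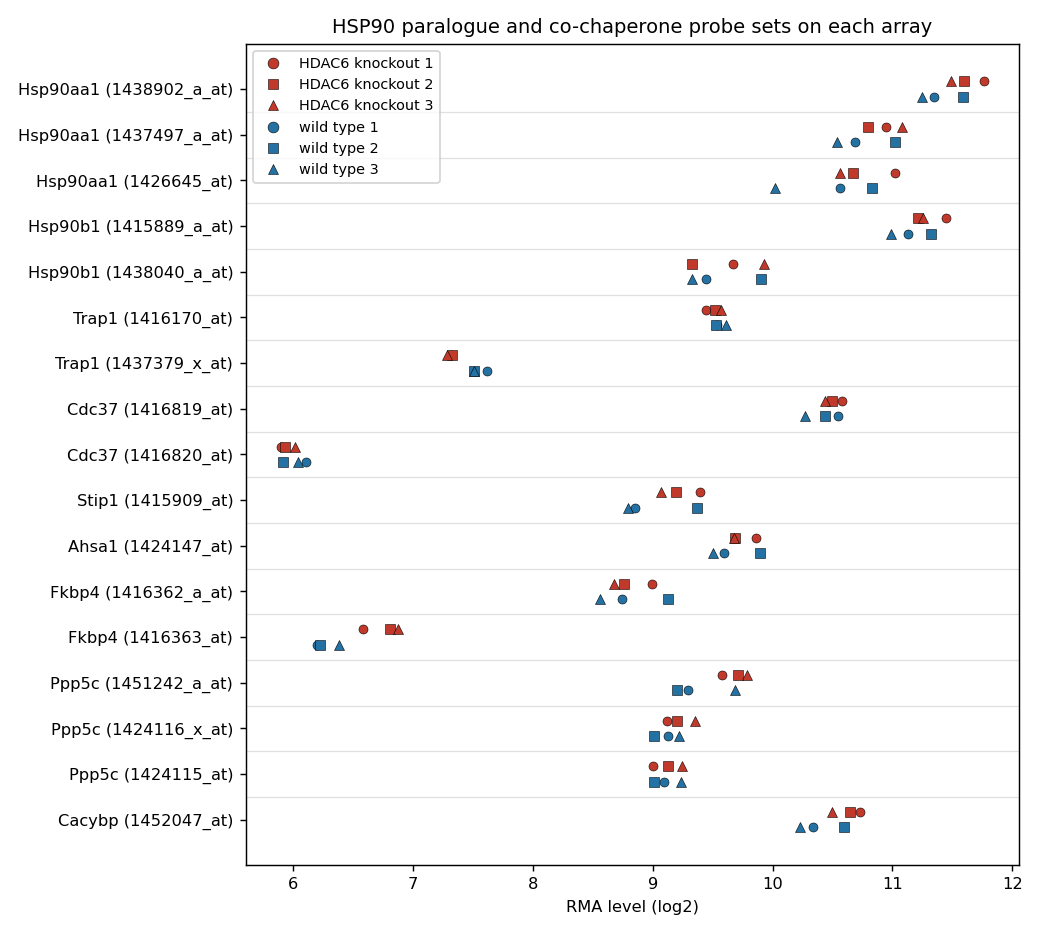
RMA level (log2, horizontal axis) of the 17 member probe sets on each of the 6 arrays, with HDAC6 knockout arrays in red on the upper line of each row, wild-type arrays in blue on the lower line, and the marker shape giving the replicate number. The genotypes separate only for the Fkbp4 probe set 1416363_at and the Trap1 probe set 1437379_x_at, and wild type replicate 2 lies among or above the knockout arrays for most probe sets of Hsp90aa1, Hsp90b1, Stip1, Ahsa1, Fkbp4 and Cacybp. Levels of different probe sets are not comparable with each other.

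Among the paralogues, Hsp90aa1 encodes the stress-inducible cytosolic HSP90 alpha. Its brightest probe set, 1438902_a_at, read 11.76, 11.59 and 11.49 in knockout Treg, against 11.34, 11.59 and 11.25 in wild-type Treg. Wild type replicate 2 reached the level of knockout replicate 2, and the other wild-type arrays lay below all knockout arrays. The difference was 0.22 (SE 0.11, 95% interval -0.05 to 0.49), or 1.17-fold, with a limma adjusted p of 0.556. Probe set 1437497_a_at read 10.95, 10.79 and 11.08 in the knockout, against 10.69, 11.02 and 10.54 in wild type. Probe set 1426645_at read 11.02, 10.67 and 10.56 in the knockout, against 10.57, 10.83 and 10.02 in wild type. In both, wild type replicate 2 lay inside the knockout range and wild type replicate 3 was the lowest array. Their differences were 0.19 (SE 0.14) and 0.28 (SE 0.21), and none of the 3 probe sets passed. Single arrays moved all of them: without wild type replicate 3 the differences were 0.15, 0.0842 and 0.0552 in the order given above, and without wild type replicate 2 they were 0.32, 0.33 and 0.46.

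Hsp90b1 encodes GRP94, also called gp96, the HSP90 of the endoplasmic reticulum (ER), which folds integrins, Toll-like receptors and the Treg surface protein GARP. It is known to be raised by the unfolded protein response through ER stress elements in its promoter, and the promoter sequences of RefSeq (GRCm38.p6) show them. The element searched was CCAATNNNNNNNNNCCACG on either strand, written CGTGGNNNNNNNNNATTGG in reverse; its first 5 letters are also a CCAAT box. The stretch of the Hsp90b1 promoter below is on the minus strand of chr10:86705523-86705666, and that of Hspa5, the ER HSP70 whose promoter is the classical example of the element, is on the plus strand of chr2:34772015-34772053. They are shown because Hsp90b1 was the member whose window held the element; capitals mark the outer 5 bases at each end of every match.
Hsp90b1: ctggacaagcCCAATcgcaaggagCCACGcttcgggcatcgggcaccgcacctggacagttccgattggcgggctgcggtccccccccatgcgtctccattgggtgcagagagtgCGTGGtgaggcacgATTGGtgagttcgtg
Hspa5: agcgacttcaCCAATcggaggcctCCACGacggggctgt

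Hsp90b1 held 2 matches, 1 in each orientation, spanning bases 212 to 194 and 107 to 89 before the annotated start. Hspa5 held 1, at bases 65 to 47. Of all 32851 promoter windows of 300 bases, 39 (0.119%) held the element. The promoter table held windows of 9 of the 10 listed members, Ptges3 included and Hsp90aa1 not. Of these 9 windows 1, that of Hsp90b1, held the element, as did 7 of 20 genes of the ER list described below. The heat shock element, searched as 3 alternating repeats GAANNTTCNNGAA or TTCNNGAANNTTC, was in 198 windows (0.603%), in 0 of the same 9 member windows and in 3 of 14 genes of the heat shock list described below. The Hsp90aa1 promoter was not searched for either element. A match in these letters is a description of the window, not a measured binding site.

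The brighter Hsp90b1 probe set, 1415889_a_at, read 11.45, 11.22 and 11.25 in knockout Treg, against 11.13, 11.32 and 10.98 in wild-type Treg. Wild type replicate 2 exceeded 2 of the 3 knockout arrays. The difference was 0.16 (SE 0.11, 95% interval -0.10 to 0.42), with a limma adjusted p of 0.656. The other probe set, 1438040_a_at, read 9.67, 9.33 and 9.93 in the knockout, against 9.45, 9.91 and 9.32 in wild type, and the arrays of both genotypes covered nearly the same range. Its difference was 0.08 (SE 0.20). It changed sign without knockout replicate 3 (-0.0599), without wild type replicate 3 (-0.0341) and with array weights (-0.0752).

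Plasma cells make large amounts of ER chaperones, so their markers are given beside Hsp90b1. All 11 measured plasma cell markers were above 0, and 7 lay wholly above wild type, where 8.28% of all genes did. Their mean log2 level was 9.12 to 9.64 in knockout arrays and 8.56 to 8.85 in wild-type arrays. Of these markers only Igha, the IgA heavy chain, passed the threshold (1.81, SE 0.14, limma adjusted p = 0.00799), and 0 of the markers passed without knockout replicate 2. Over the 6 arrays, 10 plasma cell markers with a mean level of at least 6 were correlated with the brighter Hsp90b1 probe set. Among them Xbp1, Derl3 and Creld2 are also in the ER list described below, so these values are not of cell markers alone. Their r was 0.333 to 0.827, with a median of 0.575, against a median of -0.07 over 7130 genes. This was not particular to Hsp90b1. With the brightest probe set of the cytosolic Hsp90aa1 the same markers gave 0.260 to 0.762, with a median of 0.567. Their part in the Hsp90b1 values was not tested.

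Trap1, the mitochondrial paralogue, was the 1 gene whose brightest probe set was lower in the knockout. Probe set 1416170_at read 9.44, 9.52 and 9.57 in knockout Treg, against 9.53, 9.53 and 9.61 in wild-type Treg. The ranges overlapped, with knockout replicate 1 the lowest array. The difference was -0.05 (SE 0.07, 95% interval -0.21 to 0.11), or 0.97-fold. Probe set 1437379_x_at read 7.31, 7.32 and 7.29 in the knockout, against 7.62, 7.51 and 7.51 in wild type. Here all 3 knockout arrays lay below all wild-type arrays, with a difference of -0.24 (SE 0.07, 95% interval -0.39 to -0.08). Its limma adjusted p was 0.268. The suffix _x marks a probe set with probes that also match other sequences, so this value may not be of Trap1 alone. The 2 probe sets correlated at r = 0.348 over the 6 arrays.

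Stip1, also called HOP, holds HSP70 and HSP90 together while a client is passed on. It read 9.39, 9.19 and 9.07 in knockout Treg, against 8.85, 9.37 and 8.79 in wild-type Treg. The wild-type arrays spanned 0.58, with replicate 2 inside the knockout range, and the difference between genotypes was 0.21 (SE 0.17, 95% interval -0.18 to 0.61, limma adjusted p = 0.701). Cdc37 delivers protein kinases to HSP90. Its brighter probe set, 1416819_at, read 10.58, 10.50 and 10.44 in the knockout, against 10.54, 10.44 and 10.27 in wild type. These ranges overlapped, and the difference was 0.08 (SE 0.09). The dimmer probe set, 1416820_at, differed by -0.07 (SE 0.08), so the probe sets of Cdc37 gave opposite signs and both intervals held 0.

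Ahsa1, or AHA1, stimulates the ATPase of HSP90. It read 9.86, 9.69 and 9.68 in knockout Treg, against 9.59, 9.89 and 9.50 in wild-type Treg. Its highest and its lowest array were both wild type, and the difference was 0.08 (SE 0.12). Without wild type replicate 3 it was -0.0017, against 0.19 without wild type replicate 2. Cacybp, the calcyclin-binding protein, carries a fold shared with p23 and with the HSP90 partner SGT1. It read 10.73, 10.65 and 10.50 in knockout Treg, against 10.34, 10.60 and 10.23 in wild-type Treg. Only wild type replicate 2 reached the knockout range. The difference was 0.24 (SE 0.11, 95% interval -0.03 to 0.51), with a limma adjusted p of 0.526.

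Fkbp4 and Ppp5c both bind the tail of HSP90 through tetratricopeptide repeats. Fkbp4, or FKBP52, is a prolyl isomerase of steroid receptor complexes, and its probe sets disagreed. The brighter one, 1416362_a_at, read 8.996, 8.76 and 8.68 in knockout Treg, against 8.75, 9.12 and 8.56 in wild-type Treg, with wild-type arrays highest and lowest. Its difference was 0.00 (SE 0.16). The dimmer one, 1416363_at, read 6.58, 6.81 and 6.87 in the knockout, against 6.20, 6.22 and 6.38 in wild type, with every knockout array above every wild-type array. Its difference of 0.48 (SE 0.10, 95% interval 0.25 to 0.72), or 1.40-fold, was the largest of any member probe set. It did not pass, with a limma adjusted p of 0.148, and ranged down to 0.0821 with array weights. The 2 probe sets, annotated with the same transcript record, correlated at r = -0.291 over the 6 arrays.

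Ppp5c is the phosphatase PP5, which acts on HSP90-bound clients and on CDC37. Its probe set 1451242_a_at read 9.58, 9.71 and 9.78 in knockout Treg, against 9.30, 9.20 and 9.69 in wild-type Treg. Wild type replicate 3 overlapped the knockout arrays, and the others lay below them. The difference was 0.29 (SE 0.13, 95% interval -0.02 to 0.61, limma adjusted p = 0.5002). Without wild type replicate 3 it was 0.44, with an adjusted p of 0.198. The other probe sets differed by 0.11 (1424116_x_at, SE 0.09) and 0.01 (1424115_at, SE 0.09), and in both the genotypes overlapped.

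**Figure D2:**
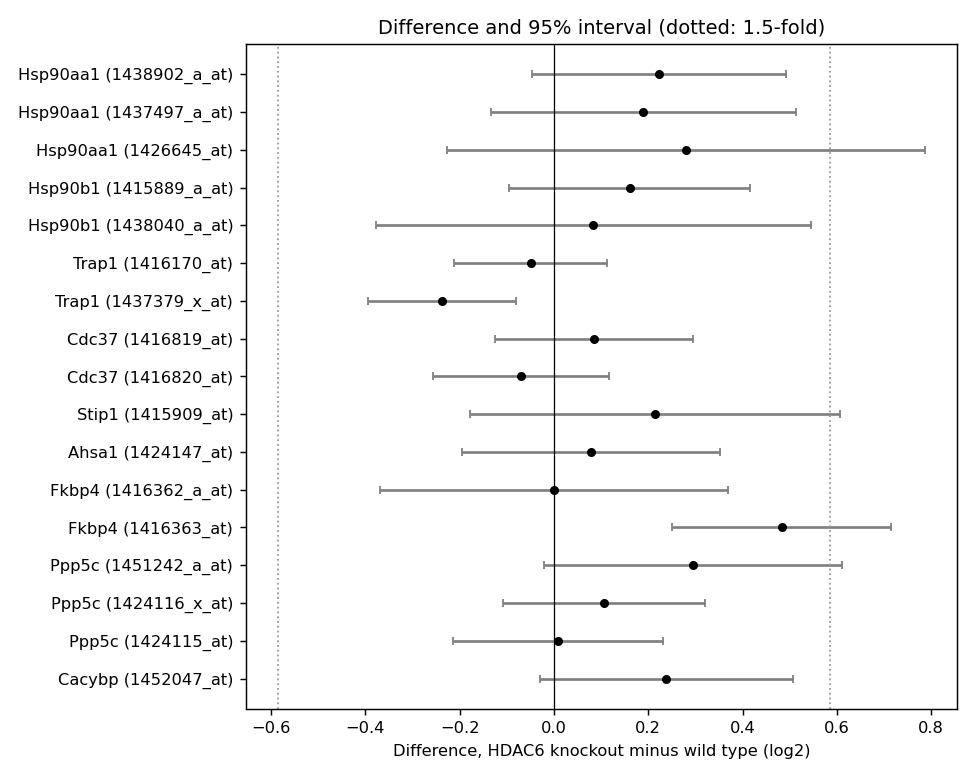
Difference between HDAC6 knockout and wild type (log2, points) with its 95% interval from limma (bars) for each member probe set, and dotted lines at a 1.5-fold change. The intervals of 15 of the 17 probe sets hold 0, and the exceptions are Fkbp4 1416363_at above it and Trap1 1437379_x_at below it.

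The members also varied among arrays of 1 genotype. For 15 of the 17 probe sets the range over the 3 wild-type arrays was larger than the difference between genotypes. The share of all probe sets with such a range was not counted, so whether this is particular to the members is not known. The SD was larger in wild type than in the knockout for 13 of 17 member probe sets, against 49.3% of all probe sets. Wild type replicate 3 was the lowest of all 6 arrays for 10 member probe sets, and knockout replicates 1 and 3 were each the highest for 6. The shares of all probe sets for these ranks over 6 arrays were not counted, and probe sets of 1 gene are not independent. Among the wild-type arrays alone, replicate 2 was the highest for 9 member probe sets, where it was for 30.3% of all probe sets, and replicate 3 the lowest for 10, where it was for 33.5%.

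By their brightest probe sets, 6 members varied together. These were Hsp90aa1, Hsp90b1, Stip1, Ahsa1, Fkbp4 and Cacybp, picked out after their values were seen, so their agreement is a description. In all 6, knockout replicate 1 was the highest knockout array and wild type replicate 2 the highest wild-type array, by 0.10 to 0.19 and 0.18 to 0.37 over their genotype means, and wild type replicate 3 was the lowest of its genotype. Pearson's r over the 6 arrays was 0.715 to 0.987 for the 15 pairs, and 0.886 to 0.989 for deviations from the genotype means. The arrays behind these values are shared by all genes, and the deviations of 3 arrays sum to 0 within a genotype. Other probe sets of the same genes did not all follow. Fkbp4 1416363_at correlated at -0.291 with its brighter probe set and Hsp90b1 1438040_a_at at 0.426 with Hsp90aa1 1438902_a_at, and knockout replicate 3 was the highest knockout array for both and for Hsp90aa1 1437497_a_at. Trap1 had r with Hsp90aa1 of -0.870 over the 6 arrays and -0.838 for deviations. For Ppp5c these were -0.022 and -0.835, so the opposite course was seen within genotypes only, and for Cdc37 they were 0.665 and 0.559.

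**Figure D3:**
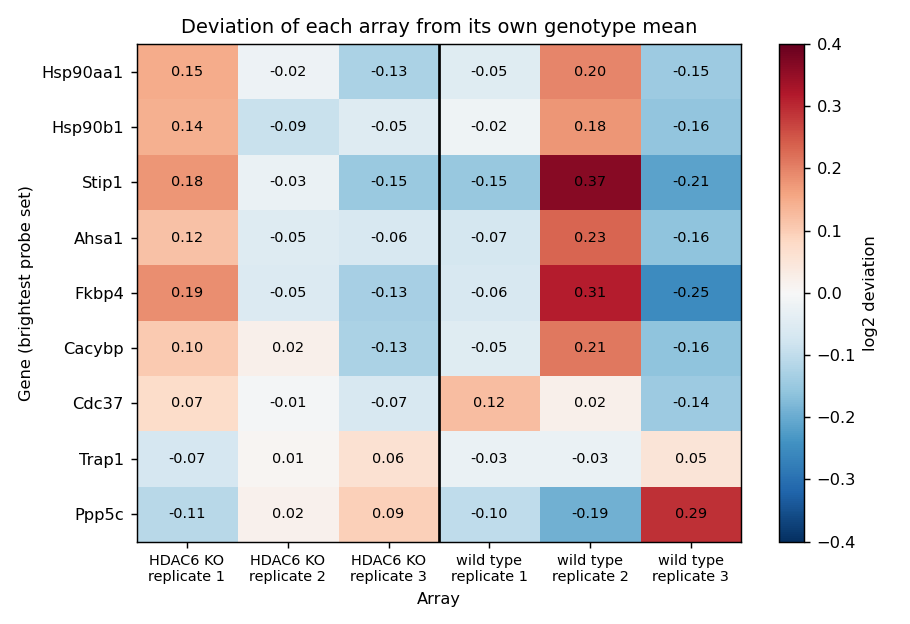
Deviation of each array from the mean of its own genotype (log2, colour and printed number) for the brightest probe set of each of the 9 members, with HDAC6 knockout arrays left of the black line and wild-type arrays right of it. The upper 6 genes are high together in knockout replicate 1 and wild type replicate 2, with Stip1 at 0.37 in that wild-type array, while Ppp5c and Trap1 have the opposite sign there.

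Leaving out wild type replicate 2 changed the separation of the genotypes most. Without it, 7 member probe sets lay wholly above wild type and 2 wholly below, where 11.7% and 14.1% of all probe sets did. The 7 were 2 of Hsp90aa1 and 1 each of Hsp90b1, Stip1, Ahsa1, Fkbp4 and Cacybp. That of Fkbp4 was 1416363_at, which lay wholly above wild type with all 6 arrays too. Its brighter probe set, 1416362_a_at, still overlapped, with knockout replicate 3 at 8.68 and wild type replicate 1 at 8.75. The differences were then 0.32 for Hsp90aa1, 0.40 for Stip1 and 0.34 for Cacybp by their brightest probe sets, and 0 members passed. Without wild type replicate 3 the same probe sets gave 0.15, 0.11 and 0.16. Without knockout replicate 3 the counts were 3 above and 2 below, where 11.3% and 14.7% of all probe sets were. They were 2 above and 1 below without knockout replicate 1 (15.6% and 15.3% of all probe sets) and without wild type replicate 3 (13.9% and 15.2%), and both counts are below those shares of 17. Leaving out wild type replicate 3 gave the smallest number of positive differences, 11 of 17, with a median of 0.07. Leaving out knockout replicate 2 or wild type replicate 2 gave the largest medians, 0.21 and 0.20.

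The genes most like Hsp90aa1 over the 6 arrays included another member. Among 7130 genes with a mean level of at least 6, the highest r with its brightest probe set was that of Cacybp (0.987). The next were 1810055G02Rik (0.983), Frmd4b (0.979), Ssr1 (0.977), which encodes a subunit of the ER translocon-associated complex, and Rab5a (0.977), a GTPase of early endosomes. An r of at least 0.9 was reached by 69 genes (0.968%), among them 3 of the 8 other members: Cacybp, Hsp90b1 (0.954) and Stip1 (0.953). The HSP40 gene Dnaja1 (0.962) and the HSP110 gene Hsph1 (0.955), both partners of HSP70, were among them too. Of 13 HSF1 and heat shock genes with such a level, 4 reached 0.9 and the median r was 0.704. For Hsp90b1, 2 of 22 ER genes reached 0.9, Dnajb11 (0.960), an ER HSP40, and the disulfide isomerase Pdia4 (0.902), with Hspa5 at 0.833 and a median of 0.640. The lists were not particular to 1 paralogue. The median r of the ER genes with Hsp90aa1 was 0.584, and that of the heat shock genes with Hsp90b1 was 0.564. These values rest on 6 arrays and are given without a test.

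The wider HSP90 machinery, taken as further co-chaperones and assembly factors, was spread around 0. Of 28 measured genes, by their brightest probe sets, 13 were above 0 and 15 below, 0 passed, and the median was -0.02, against 0.00 over all genes. The groups did not overlap for 4 genes above and 3 below, against 8.28% and 10.3% of all genes. Nudcd1 and Nudcd3 belong to a family of HSP90-linked CS-domain proteins. Nudcd1 read 6.80, 6.61 and 6.66 in knockout Treg, against 6.49, 6.24 and 6.35 in wild-type Treg (0.33, SE 0.09, limma adjusted p = 0.257), and Nudcd3 differed the other way (-0.42, SE 0.15, limma adjusted p = 0.373). Cdc37l1, a relative of Cdc37, differed by 0.19 (SE 0.08) and Ttc4, a repeat protein that binds HSP90 and HSP70, by -0.17 (SE 0.07).

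Kinases that depend on HSP90 were likewise spread around 0. Of 16 measured, 9 were above 0 and 7 below, 0 passed and the median was 0.01. The largest difference was that of Eif2ak2, the interferon-induced kinase PKR, which read 7.07, 6.38 and 6.86 in knockout Treg, against 5.95, 6.23 and 6.29 in wild-type Treg (0.61, SE 0.18, limma adjusted p = 0.305). The autophagy kinase Ulk1 differed by 0.27 (SE 0.08), Jak1 by -0.11 (SE 0.07) and Akt1 by 0.13 (SE 0.09).

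Of 15 measured HSF1 and heat shock genes 11 were above 0 and 4 below, 0 passed and the median was 0.42. The HSP40 genes Dnajb1 (0.86, SE 0.15, limma adjusted p = 0.106) and Dnajb4 (0.64, SE 0.13), the HSP70 co-chaperone Bag3 (0.60, SE 0.15) and the small heat shock gene Hspb1 (0.80, SE 0.22) each lay wholly above wild type. These 4 were named for their small p, which favours separated genes. Of the 15 genes 4 lay wholly above wild type and 0 wholly below, where 8.28% and 10.3% of all genes did. The largest differences were those of the inducible HSP70 genes Hspa1a (2.30, SE 1.04) and Hspa1b (1.81, SE 0.78), with overlapping genotypes. Hspa1a read 7.45, 10.28 and 10.06 in knockout Treg, against 4.91, 7.77 and 8.22 in wild-type Treg, and replicate 1 was the lowest array of both genotypes. The difference between this list and the HSP90 members was not tested.

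ER chaperone and unfolded protein response genes, the partners of Hsp90b1, were above 0 in 14 of 23 and below in 9, with a median of 0.07 and 0 past the threshold. Those with the smallest p were Edem1, which clears misfolded glycoproteins (0.67, SE 0.13, limma adjusted p = 0.146), the secreted ER factor Manf (0.45, SE 0.11), the transcription factor Xbp1 (0.40, SE 0.10) and the degradation factor Derl3 (0.82, SE 0.26). Xbp1, Derl3 and a further gene of this list, Creld2, are also in the plasma cell list. Clients of the GRP94 protein and its helper Cnpy3 were split, 8 above 0 and 8 below of 16, with a median of -0.01 and 0 past the threshold. The smallest p-values were those of the integrin chains Itgae, which encodes CD103 (0.31, SE 0.08, limma adjusted p = 0.223), and Itga4 (0.35, SE 0.10), the receptor Tlr4 (0.28, SE 0.08) and the integrin chain Itgav (0.30, SE 0.11). Each of these 4 lay wholly above wild type, where 8.28% of all genes did. They are named for their small p, which favours separated genes. In the list 0 genes lay wholly below wild type, where 10.3% of all genes did. The other 5 integrin chains of the list lay between -0.12 (Itgax) and 0.07 (Itgam). The Tlr4 values were low, at levels of 4.24 to 4.34 in knockout arrays and 3.88 to 4.12 in wild-type arrays, near the lower quartile of the arrays (4.14 to 4.25).

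The list of mitochondrial chaperones and proteases, which work beside Trap1, also held the succinate dehydrogenase subunit Sdhb (-0.05, SE 0.06). Its genes were above 0 in 4 and below in 8 of 12, Sdhb included, with a median of -0.03, and 0 passed. The protease subunits Afg3l2 (-0.15, SE 0.08) and Yme1l1 (-0.18, SE 0.14) and the unfoldase Clpx (-0.14, SE 0.09) were below 0, and the chaperonin Hspd1 was at 0.16 (SE 0.11).

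**Figure D4:**
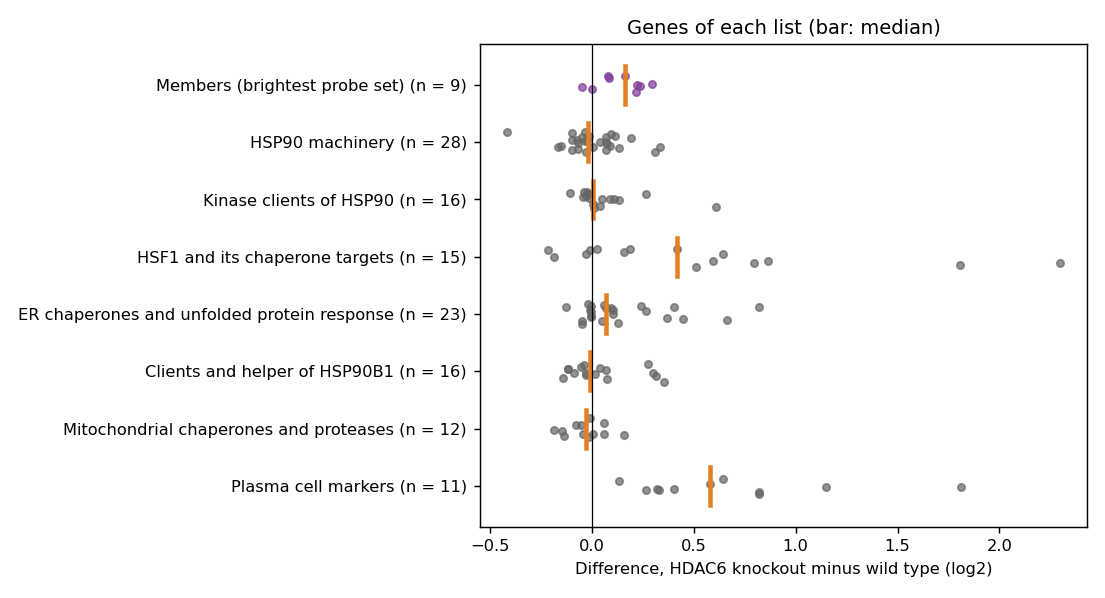
Difference between HDAC6 knockout and wild type (log2, horizontal axis) for each gene, by its brightest probe set, of the members and of 7 gene lists, with an orange bar at each median. The member median lies at 0.16, that of the wider HSP90 machinery at -0.02, and those of the heat shock list and the plasma cell markers at 0.42 and 0.58.

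Markers of other cells that a magnetic separation can carry over were taken with the members. Of all genes 8.28% lay wholly above wild type and 10.3% wholly below. B cell markers were above 0 in 5 and below in 6 of 11, with a median of -0.32. Their mean log2 levels were 6.39 to 6.91 in knockout arrays and 6.81 to 7.10 in wild-type arrays. Of them 0 lay wholly above wild type and 2 wholly below, Ms4a1 (-1.13, SE 0.29) and Spib (-0.94, SE 0.24). Myeloid markers were above 0 in 4 and below in 8 of 12, at 6.89 to 7.203 in knockout arrays and 6.996 to 7.32 in wild-type arrays. Their median was -0.12, with 0 wholly above wild type and 2 wholly below, Cd14 (-0.19, SE 0.08) and H2-Eb1 (-0.30, SE 0.11). Cd14 levels were low, 4.48 to 4.56 in knockout arrays and 4.58 to 4.77 in wild-type arrays. H2-Eb1 is an MHC class II gene, which B cells express too, so it is not a marker of myeloid cells alone. The same holds for H2-Aa (-0.34, SE 0.13), H2-Ab1 (-0.36, SE 0.17) and Cd74 (0.02, SE 0.11) of this list. Markers of CD8 T and NK cells were above 0 in 2 and below in 5 of 7, at 6.66 to 6.95 in knockout arrays and 6.83 to 7.11 in wild-type arrays. Their median was -0.08, with 1 wholly above wild type, Cd8a (0.25, SE 0.08). The 2 wholly below were Gzma (-1.03, SE 0.25) and Cd8b1 (-0.37, SE 0.09). Of these 3 lists 0 genes passed. Their part in the values of the HSP90 members was not tested.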

How the data were processed

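The authors deposited 1 table of log2 values for 6 arrays, 3 per genotype (22690 probe sets, 0 missing values). It was made with RMA (background correction, quantile normalization and 1 summary per probe set), per the submitters' processing notes; no version is given in the sources used here. RMA compresses differences at both ends of the scale. The log2 scale was taken from the range of the deposited values, and no further normalization was applied. The number of arrays limits the precision. Slides and scan dates were not used here, and no batch was tested.

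After 64 control probe sets were left out, 22626 were tested with limma (version 3.58.1, R 4.3.3; functions lmFit and eBayes, genotype as the only term, two-sided, Benjamini-Hochberg over all probe sets, threshold 0.05). The fit was tested on simulated data. Names came from the platform annotation, updated through gene IDs to RefSeq (GRCm38.p6) for 20351 of 20380 probe sets with 1 symbol; 691 had several symbols and 1555 none. Lists used each gene's brightest probe set over the 6 arrays.

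The members, the lists and the other named genes (up to 4 of each list by smallest p, and the 5 most like Hsp90aa1) were chosen with earlier results of these data known. Alternatives were other normalizations, variance settings, array weights, a filter at a mean of 6, a replicate block, other probe set rules, a threshold of 0.1 and leaving out each array. Plots used matplotlib 3.10.9 (Python 3.11.15).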

Additional observations from a re-analysis of the deposited data

How the results depend on the processing

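Under all 15 alternatives 0 member probe sets passed. Of 238 member values 228 kept their sign and 10 changed it. Many of the 228 could not change. The trend and robust settings, the filter at a mean of 6, the replicate block, the brightest probe set rule and the threshold of 0.1 leave a difference as it was. The changes were in 4 probe sets that were near 0. Fkbp4 1416362_a_at was -0.0708 with array weights and -0.13 to 0.16 when 1 array was left out. Hsp90b1 1438040_a_at was -0.0752 with array weights and -0.0599 to 0.26 when 1 array was left out. Ahsa1 ranged from -0.0017 to 0.19 and Ppp5c 1424115_at from -0.0504 to 0.0719 when 1 array was left out. The cause was not tested. Over all probe sets 44 passed, against 147 with trend and robust settings, 86 with array weights, 121 at a threshold of 0.1, and 5 to 51 when 1 array was left out (5 without knockout replicate 2, 11 without wild type replicate 2, 20 without knockout replicate 1); 66 passed among probe sets with a mean of at least 6. Over genes, which are fewer, 21 passed by the brightest probe set and 28 by the mean of a gene's probe sets. Whether the replicate numbers pair the arrays cannot be told from 3 arrays per genotype. Deviations of same-numbered arrays correlated at 0.22, -0.0944 and 0.103, and those of differently numbered arrays at -0.221 to 0.128. The arrays of replicate 1 correlated best with each other, and not every array correlated best with its own number. With the replicate number as a block 27 probe sets and 0 member probe sets passed. In the fixed lists, 1 heat shock gene passed with the block and 1 with trend and robust settings, and 0 plasma cell markers passed without knockout replicate 2.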
